A study of Mus musculus with 4 samples.

Results

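Transcripts of 36 cell-cell junction genes were followed in MMTV-Myc cells, mouse mammary tumour cells with a Myc transgene. The genes were chosen by name as components of adherens junctions, tight junctions, desmosomes and gap junctions, together with the adhesion molecule Epcam and a pair of polarity genes. Earlier results of these data were known when the choice was made. Each was looked up by symbol in the deposited tables. All 36 had a row among the 22440 rows of the bulk and mammosphere table, and 29 had a row among the 11708 rows of the knockdown table. The other 7 (Cldn1, Cldn7, Tjp3, Dsg2, Pkp1, Evpl and Gjb2) were not analysed in the second table, which holds no row at 0 in either library.

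The series holds 4 libraries of polyadenylated RNA, 1 in each group. All are labelled as MMTV-Myc cells, in which the MMTV (mouse mammary tumour virus) promoter drives Myc. Bulk cells (day 0, genotype given as wild type) were grown with serum and insulin, whereas mammosphere cells (day 20, wild type) were grown as floating clusters with EGF, bFGF and Gem21 supplement and were dissociated at each passage. The control cells (genotype given as wild type with shLuc, in another label as shScr) and the Cbx8 knockdown cells (sh68) carried pLKO.1 lentiviral short hairpin RNAs and were kept in puromycin. The sources used here do not say in which culture format the hairpin lines grew, nor whether a group was 1 clone. Values are FPKM, fragment counts scaled by transcript length and by the mapped fragments of the library, so levels of different genes within a library are on a per-length scale. With 1 library a group there is no replicate spread and no test, and every difference is between 2 libraries.

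Junctions tie neighbouring epithelial cells together. In adherens junctions a classical cadherin binds its like on the next cell and is linked to actin through beta-, p120- and alpha-catenin, while nectins form a parallel adhesive system. Tight junctions, built of claudins, occludin and zonula occludens scaffolds, seal the space between cells. Desmosomes join desmogleins and desmocollins through plakoglobin, plakophilins and desmoplakin to keratin filaments, and gap junctions are channels of connexins. In the mammary gland the luminal layer carries E-cadherin (Cdh1) and Epcam, and loss of E-cadherin is a known mark of epithelial-mesenchymal transition.

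Epcam and Cdh1, both defining markers of mammary epithelial cells, were near or under 1 FPKM in every library. Some other epithelial junction genes were under 1 FPKM as well, whereas others, such as Perp and Dsp, were not. Epcam reached 1.06 FPKM in the bulk library and 0.0908 in the mammosphere library, and 0.338 and 0.0427 in the control and knockdown libraries. Cdh1 was at 1.04 and 0.0135 FPKM in bulk and mammosphere cells, and at 0.283 and 0.206 in control and knockdown cells. Cdh3, the P-cadherin of basal cells, did not exceed 0.26 FPKM in any of the 4, and the tight junction protein occludin (Ocln) did not exceed 0.957. The keratins Krt8 and Krt18, also epithelial, were by contrast at 334 and 570 FPKM in the bulk library, and the desmosome genes Perp and Dsp at 54.6 and 12.6. In the same library Vim, the mesenchymal filament vimentin, was at 3090 FPKM.

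Transcripts of the shared cytoplasmic parts of the junctions were abundant in the same libraries. Beta-catenin (Ctnnb1) had the highest level of any member in each library, at 238 FPKM in bulk cells and 294 in mammosphere cells, and at 245 and 259 in control and knockdown cells. Between 12 and 18 members were at 10 FPKM or more in a library (16 in bulk, 12 in mammospheres, and 18 of 29 in each hairpin library). In the first of these tables, of bulk and mammosphere cells, 10 members stayed under 1 FPKM in both libraries: Cdh3, Cldn1, Cldn7, Cldn23, Ocln, Tjp3, Marveld2, Pkp1, Evpl and Gjb2. They ranged from 0.0795 to 0.769 FPKM in bulk cells and reached at most 0.509 in mammospheres, where Cldn1 and Gjb2 were listed at 0.

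**Figure D1:**
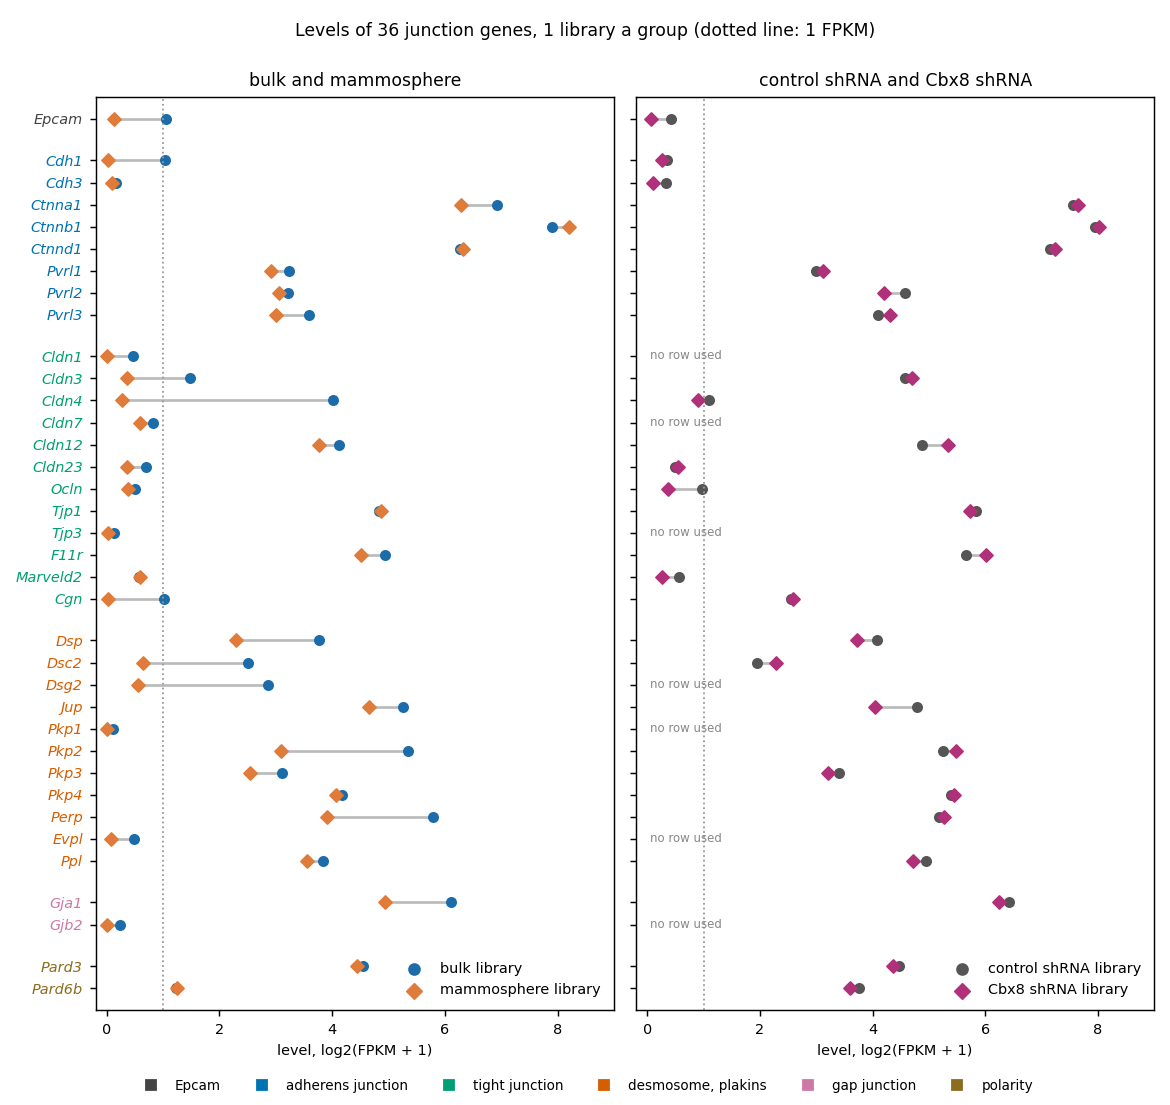
Level of each of the 36 junction genes as log2(FPKM + 1), grouped by junction type, with 1 point per library (left, bulk and mammosphere; right, control and Cbx8 shRNA). Catenins sit at the right end in all 4 libraries, Epcam and Cdh1 sit close to or left of the dotted line at 1 FPKM, and the long links on the left panel belong mainly to Cldn4 and to desmosome genes.

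In the mammosphere library, desmosome genes, Cldn4 and the connexin Gja1 were lower than in the bulk library, and no member was 2-fold higher. Differences are given as log2((FPKM + 1)/(FPKM + 1)), mammosphere over bulk, which understates the difference of a low gene. Of the 26 members with at least 1 FPKM in either library, 9 (34.6%) were at least 2-fold lower and 0 at least 2-fold higher. Over all 11603 rows at that minimum, 17.3% were at least 2-fold lower and 3.54% at least 2-fold higher, so lower rows were frequent everywhere. The median difference was −0.59 for the 26 members and −0.24 for all rows. With differences centred on the median row 6 members were 2-fold lower, against 13.3% of all rows lower and 5.63% higher, because Cdh1 (−0.83), Cldn3 (−0.93) and Gja1 (−0.99) no longer reached the limit. With equal upper quartiles the median of all rows moved to 0.03, 8 members were 2-fold lower without Gja1 (−0.89), and 13.6% of all rows were lower and 6.78% higher. A member at 1 FPKM through the bulk library alone could only be lower, which applies to Epcam, Cdh1, Cldn3, Cldn4, Cgn, Dsc2 and Dsg2, so the count describes these genes and is not support for a shift of the group.

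**Figure D2:**
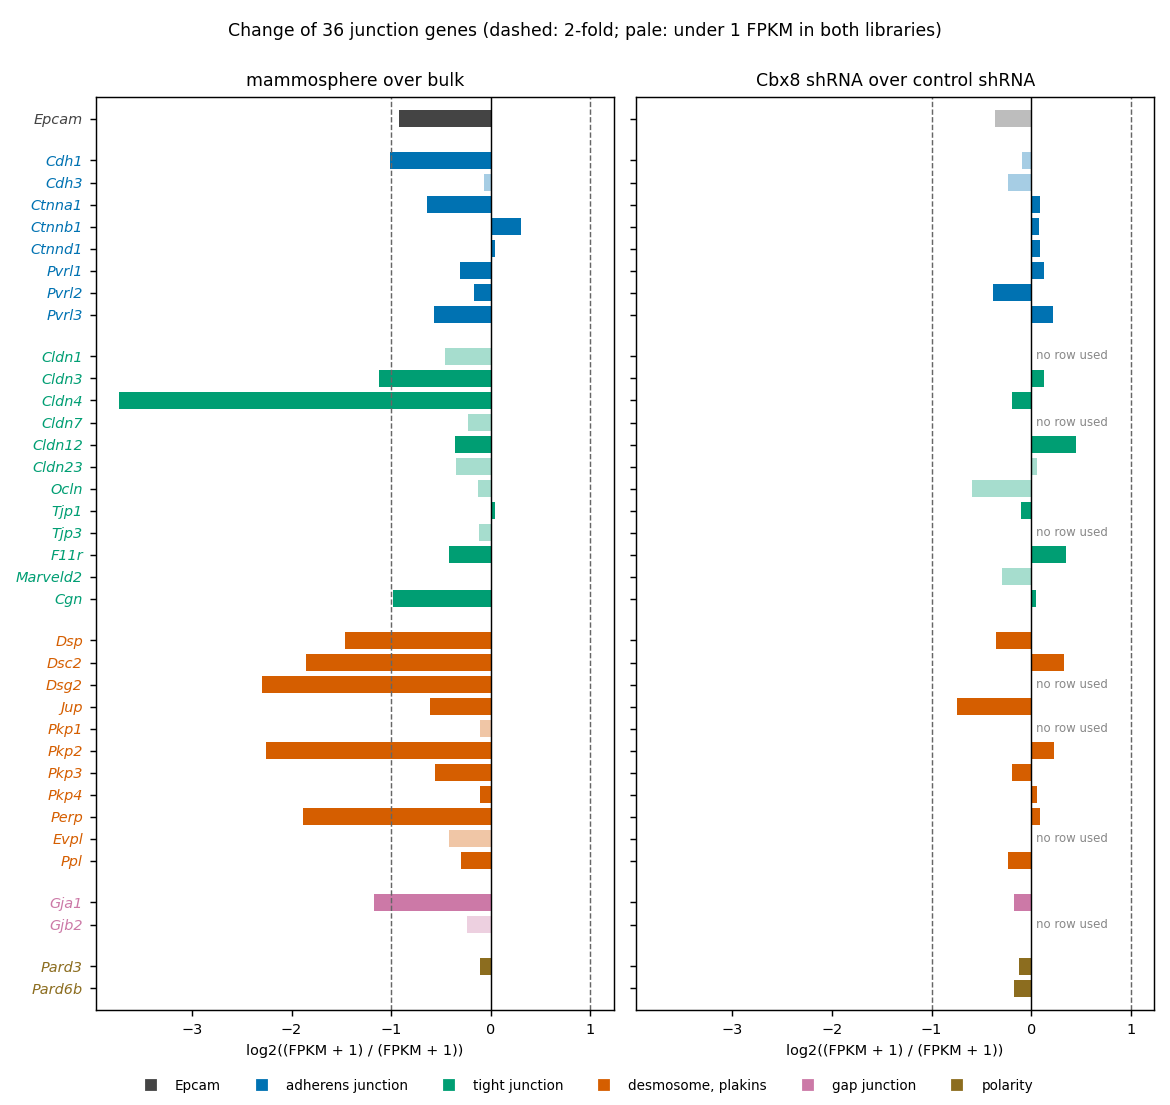
Difference of each junction gene as log2((FPKM + 1)/(FPKM + 1)), left mammosphere over bulk and right Cbx8 shRNA over control shRNA, coloured by junction type, with dashed lines at 2-fold. On the left 9 solid bars pass the lower line, 5 of them desmosome genes, and on the right no bar passes either line.

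The adherens junction genes with substantial transcript differed little between bulk and mammosphere cells. Ctnnb1 was 0.30 higher on the log2 scale and Ctnnd1, p120-catenin, was at 76.1 and 78.5 FPKM (0.04). Ctnna1, alpha-catenin, which links the complex to actin, stood at 120 FPKM in bulk and at 76.7 in mammosphere cells (−0.64). The nectins were close to one another: Pvrl3 was at 10.97 and 7.05 FPKM, Pvrl2 at 8.27 and 7.27, and Pvrl1 at 8.35 and 6.56. Of the 7 adherens genes at 1 FPKM or more, Cdh1 alone (14.3%) was counted as lower (−1.01), against 17.3% of all rows. Cdh1 passed the minimum through the bulk library alone. As a plain ratio Cdh1 was 77.1-fold lower, Epcam 11.7-fold lower (log2 −0.92 on the added scale) and cingulin (Cgn) 61.0-fold lower (−0.99), each starting from about 1 FPKM in bulk cells. These low values have no known read count behind them.

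Among the cadherins the summed level was small and lay mostly outside the members. Over 8 cadherin genes the sum was 8.35 FPKM in bulk cells and 4.92 in mammosphere cells. Cdh2, N-cadherin, held 37.2% of it in bulk cells (3.10 FPKM) and 70.7% in mammospheres (3.48 FPKM), while the share of Cdh1 was 12.5% and 0.275%. In the hairpin table, where 3 of the 8 had a row, Cdh2 was at 14.7 FPKM in control and 21.4 in knockdown cells against 0.283 and 0.206 for Cdh1. In each of the 4 libraries N-cadherin was thus the most abundant of the cadherins that had a row, which in the hairpin libraries were 3 of the 8.

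Of 12 tight junction members, 6 reached 1 FPKM in the first table and 2 of these, Cldn4 and Cldn3, were 2-fold lower in mammospheres. Of all rows 17.3% were 2-fold lower, and Cldn4 and Cldn3 passed the minimum through the bulk library alone. Cldn4, a claudin of many glandular epithelia, stood at 15.1 FPKM in bulk and at 0.213 in mammosphere cells, a plain ratio of 71.1-fold (log2 −3.73), and showed the largest difference of any member on the log2 scale with 1 FPKM added, although the plain ratio of Cdh1 was larger. Cldn3 was at 1.77 and 0.276 FPKM (−1.12). Cldn12, in contrast, was at 16.4 and 12.6 FPKM (−0.36). The scaffold Tjp1 (ZO-1) was at 27.3 and 28.3 FPKM (0.05), and F11r (JAM-A), an immunoglobulin-type adhesion protein, at 29.5 and 21.7 (−0.42). Cldn12, Tjp1 and F11r thus all lay within 2-fold between these libraries.

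Cldn3 and Cldn4 are neighbours whose rows lie 39.3 kb apart on mm9 chromosome 5 (Cldn4 from 135420992 to 135422804, Cldn3 from 135462083 to 135477220), and their order in the bulk library differed from that in the hairpin libraries. In the bulk library Cldn4 (15.1 FPKM) stood above Cldn3 (1.77), while in mammospheres both were under 1 FPKM (0.213 and 0.276). In the hairpin libraries Cldn3 was at 22.8 and 24.9 FPKM in control and knockdown cells, and Cldn4 was at 1.13 and 0.864. The tables were normalized separately, but each of these orders is within a library. The row of Cldn3 spans far more bases than that of Cldn4, and whether reads of other transcripts were counted in it was not tested. Of the summed FPKM of the 6 member claudins, Cldn4 held 43.1% in bulk, 1.53% in mammospheres, 2.14% in control and 1.32% in knockdown cells, and Cldn3 held 5.06%, 1.99%, 43.1% and 38.0%. Cldn12 had the highest level of the 6 in each library, with 46.8%, 90.8%, 54.0% and 59.97%.

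The 250 bases upstream of the RefSeq start sites (build GRCm38.p6) are shown for this pair because Cldn4 was the higher of them in the bulk library and Cldn3 in the hairpin libraries, and for Epcam because it was low in all libraries. They were searched on both strands for CAGGTG, the E-box bound by Snail and ZEB repressors, and TGANTCA, the core site of AP-1 (Fos and Jun). Neither motif contains the other, though their ends can overlap, and matches are in capitals. The windows are chr5:134946935-134947184 (minus strand) for Cldn4, chr5:134985964-134986213 (plus strand) for Cldn3 and chr17:87635729-87635978 (plus strand) for Epcam.
Cldn4: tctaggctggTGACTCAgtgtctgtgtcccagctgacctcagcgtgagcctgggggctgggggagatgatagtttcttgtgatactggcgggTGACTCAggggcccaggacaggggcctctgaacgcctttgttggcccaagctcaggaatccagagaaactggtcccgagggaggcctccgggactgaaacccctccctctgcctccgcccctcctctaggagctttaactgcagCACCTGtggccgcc
Cldn3: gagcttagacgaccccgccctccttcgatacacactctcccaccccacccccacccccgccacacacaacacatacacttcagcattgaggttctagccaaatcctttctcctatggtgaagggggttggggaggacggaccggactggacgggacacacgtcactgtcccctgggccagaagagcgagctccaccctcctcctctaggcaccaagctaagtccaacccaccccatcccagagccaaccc
Epcam: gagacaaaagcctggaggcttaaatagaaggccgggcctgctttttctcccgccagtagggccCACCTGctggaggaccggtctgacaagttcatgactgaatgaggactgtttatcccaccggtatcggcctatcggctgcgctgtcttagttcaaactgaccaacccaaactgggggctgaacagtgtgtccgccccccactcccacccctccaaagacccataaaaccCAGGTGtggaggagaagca
The Cldn4 window held TGACTCA at 240 and 158 bases and CACCTG at 14 bases before the start site, the Cldn3 window held neither motif, and the Epcam window held CACCTG at 187 and CAGGTG at 19 bases before it. Of 23 members with a window in the table, 11 (47.8%) held the E-box in at least 1 window, compared with 19.4% of 27025 genes. The AP-1 letters were in 3 of 23 (Cldn4, F11r and Gja1), compared with 7.82% of genes. A gene with more windows has more chances to hold a motif, and per window the E-box share was 17.2% of all 32851 windows. Of the members 2-fold lower in mammospheres, Cdh1, Pkp2, Perp, Dsc2 and Dsg2 had no window and were not searched. Cldn4 held the E-box, and Cldn3, Dsp and Gja1 did not. A match is a match of letters and no binding was measured.

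Desmosome genes were 5 of the 9 members that were 2-fold lower in mammospheres. Of 11 desmosome and plakin members, 9 reached 1 FPKM, all 9 had negative differences (median −1.47) and 5 were 2-fold lower. Of all rows 65.3% were below 0 and 17.3% were 2-fold lower (median −0.24), and Dsc2 and Dsg2 passed the minimum through the bulk library alone. Pkp4 turned positive (0.08 and 0.17) when differences were centred or upper quartiles were made equal. Pkp2, plakophilin 2, which anchors desmoplakin at the plaque, stood at 39.5 FPKM in bulk and at 7.48 in mammosphere cells (−2.26). Perp, a p53-regulated membrane protein needed for desmosome assembly, was at 54.6 and 14.1 FPKM (−1.88). Dsp, desmoplakin, the link to keratin filaments, was at 12.6 and 3.92 (−1.47). The adhesive pair was low and lower still: desmoglein Dsg2 was at 6.23 and 0.475 FPKM (−2.29) and desmocollin Dsc2 at 4.65 and 0.564 (−1.85). The rows of the 3 most abundant lie, in mm9, with Pkp2 from 16213437 to 16272805 on chromosome 16, Perp from 18564876 to 18576878 on chromosome 10 and Dsp from 38243162 to 38290446 on chromosome 13. Each of these 5 genes was between 3.21 and 13.1 times lower as a plain ratio.

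Other desmosome genes differed less. Jup, plakoglobin, which also serves adherens junctions, stood at 37.2 FPKM in bulk and at 24.0 in mammosphere cells (−0.61). Pkp4, which is found at adherens junctions as well, was at 17.02 and 15.7 FPKM (−0.11), and periplakin (Ppl) at 13.4 and 10.7 (−0.30). Pkp3 was at 7.62 and 4.83 FPKM. The make-up of the plakophilins therefore differed between the libraries, with Pkp2 at 61.5% of their summed FPKM in bulk and 26.7% in mammospheres, and Pkp4 at 26.5% and 56.1%. The authors' deposited table gives a test for 10 members in this comparison and 2 were called at q under 0.05, Pkp2 (q = 0.00036) and Perp (q = 0.00796), both lower. Over the 4045 rows tested there, 10.2% were lower and 1.73% higher at that q.

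Gja1, connexin 43, the main connexin of mesenchymal and myoepithelial cells, stood at 68.3 FPKM in bulk and at 29.7 in mammosphere cells (−1.17, q = 0.156 in the authors' deposited table). Gjb2, connexin 26, was at 0.177 FPKM and listed at 0.

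The polarity genes Pard3 and Pard6b, subunits of the PAR complex that positions tight junctions, were close to equal in these libraries. Pard3 stood at 22.4 FPKM in bulk and at 20.8 in mammosphere cells (−0.10, or 0.08 and 0.18 with centring or equal upper quartiles). Pard6b was at 1.35 and 1.38 FPKM.

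**Figure D3:**
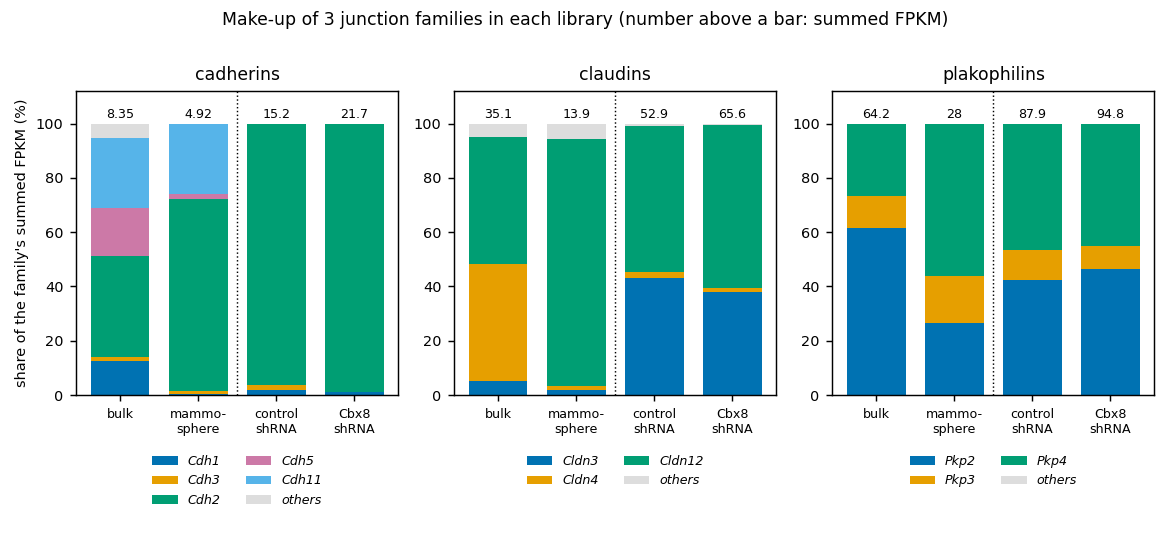
Share (%) of each gene in the summed FPKM of its family in each library, with the sum printed above each bar and a dotted line between the separately normalized tables; genes without a row count as 0. From bulk to mammosphere the Cldn4 and Pkp2 segments shrink, and the hairpin libraries carry Cldn3 where the bulk library carries Cldn4.

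Genes of the same junctions outside the member list were counted alongside. Of 95 listed genes 41 reached 1 FPKM in the first table, 14 were 2-fold lower and 0 were 2-fold higher (median −0.69), against 17.3% and 3.54% of all rows (median −0.24). Some of them, such as Cdh5 and Esam, reached 1 FPKM through the bulk library alone and could only be lower. In adherens junctions the actin-linked LIM protein Lima1 was at 70.1 and 17.6 FPKM, vinculin (Vcl) at 94.2 and 38.2, Jub (Ajuba) at 10.7 and 3.06, and the endothelial cadherin Cdh5 at 1.502 and 0.0881. In tight junctions the MARVEL-domain protein Marveld1 was at 22.0 and 11.4 FPKM and the adhesion molecule Esam at 1.86 and 0.0959. Cdsn, corneodesmosin, was at 5.58 and 0.655 FPKM. Of the polarity genes, the atypical kinase Prkci was at 43.0 and 17.1 FPKM and the scaffold Mpp5 at 24.3 and 10.5. Of these genes 15 were tested in the authors' deposited table, and 4 had q under 0.05.

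Transcripts of known repressors of Cdh1 were present in the same libraries. Snai1 stood at 57.0 FPKM in bulk and at 8.99 in mammosphere cells, and Twist1 at 36.4 and 12.0. Zeb1 was at 11.01 and 12.5 FPKM, and Zeb2, in a row shared with a microRNA, at 11.8 and 6.69. Cdh1 and Snai1 were both lower in the mammosphere library, as were Fn1, fibronectin (124 and 6.61 FPKM), and Vim (3090 and 1073). Whether these transcripts came from the cells that carry the junction genes was not tested. Of 9 genes of an epithelial list at 1 FPKM or more, 6 were 2-fold lower and 1 was higher, against 17.3% and 3.54% of all rows. Krt8 was at 334 and 5.14 FPKM, Krt14 at 18.8 and 0.0534, Krt18 at 570 and 58.2 and Spint2 at 11.8 and 0.434. Some of the list, such as Krt14 and Spint2, passed the minimum through the bulk library alone and could only be lower. The count therefore describes these genes and is not support for a shift of the list.

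Markers of other cell types were lower along with the junction genes. Of 14 leukocyte markers 13 reached 1 FPKM and all 13 were 2-fold lower in mammospheres, with a summed level of 413 FPKM in bulk cells and 1.49 in mammosphere cells and with Tyrobp, Fcer1g and Cd3e among those at 0. Of 12 fibroblast markers 10 were 2-fold lower (541 and 9.37 FPKM summed; Lum, Thy1 and Postn at 0). Of 10 endothelial markers 4 reached 1 FPKM and 3 were 2-fold lower, while the sum was 19.7 and 19.8 FPKM because Egfl7 was at 10.2 and 19.3; Tek, Emcn and Cldn5 were at 0, and Cdh5, Esam and Cldn5 also stand in the wider junction lists. Over all rows 17.3% were 2-fold lower. With a mammosphere sum of 1.49 FPKM, nearly all leukocyte markers passed the minimum through the bulk library alone and could only be lower. The same holds for Cdh5 and Esam, so these counts describe the markers and are not support for a shift. The part of such cells in the junction differences was not tested, and in RNA from a whole culture fewer cells of a type and less RNA per cell cannot be told apart.

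In Cbx8 knockdown cells the junction genes stayed close to their control values. The knockdown library had 1.23 FPKM of Cbx8, the Polycomb chromodomain gene targeted by the hairpin, against 4.74 in the control (3.84-fold lower as a plain ratio, q = 0.385 in the authors' deposited table). Of the 23 members at 1 FPKM or more, 0 were 2-fold lower and 0 were 2-fold higher. Such rows were rare in the whole table, at 0.449% lower and 0.299% higher of 10685 rows. The members' median was 0.05 and that of all rows −0.006, with 13 members above and 10 below 0. Over all 29 members with a row, those under 1 FPKM included, the median was −0.089. Of the 29 members with a row, 0 passed a q of 0.05 in the authors' deposited table, where 0.0769% of 11708 rows were lower and 0.128% higher at that q.

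The differences of single members ranged from −0.75 to 0.45 on the log2 scale. The lowest was Jup, at 26.6 FPKM in control and 15.4 in knockdown cells (−0.75, 1.72-fold lower as a plain ratio, q = 0.523 in the authors' deposited table). Next came Pvrl2, nectin 2, at 22.9 and 17.3 FPKM (−0.38), and Dsp at 15.9 and 12.2 (−0.35). The highest was Cldn12, at 28.5 and 39.3 FPKM (0.45), followed by F11r at 49.6 and 63.3 (0.35) and Dsc2 at 2.87 and 3.87 (0.33). None of these 6 genes has a replicate against which its difference could be set.

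Within each junction type the knockdown differences were mixed or small. Of the 6 adherens genes at 1 FPKM or more, 5 were above 0, with the catenins Ctnna1 at 186 and 198 FPKM, Ctnnb1 at 245 and 259 and Ctnnd1 at 141 and 150, and with Pvrl3 at 16.1 and 18.8 and Pvrl1 at 6.96 and 7.69. Of 6 tight junction genes 4 were above 0, and Tjp1 was at 55.8 and 51.9 FPKM and Cgn at 4.83 and 5.01. Of 8 desmosome genes 4 were above and 4 below 0. There Pkp2 was at 37.2 and 43.9 FPKM, Pkp4 at 41.1 and 42.7, Perp at 35.4 and 37.7, Ppl at 30.0 and 25.4, and Pkp3 at 9.61 and 8.26. Gja1 was at 84.4 and 74.9 FPKM, Pard3 at 21.2 and 19.4, and Pard6b at 12.6 and 11.1.

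The members that were lower in mammospheres had no common direction in the knockdown. Of those 9, 7 reached 1 FPKM in the knockdown table, and their differences ran from −0.35 to 0.33, with 4 above and 3 below 0. The tables share no library. Members under 1 FPKM in both hairpin libraries were Epcam, Cdh1, Cdh3, Cldn23, Ocln and Marveld2, between 0.0427 and 0.957 FPKM. Ocln was the largest of them in the control (0.957 FPKM) and was at 0.298 in the knockdown.

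**Figure D4:**
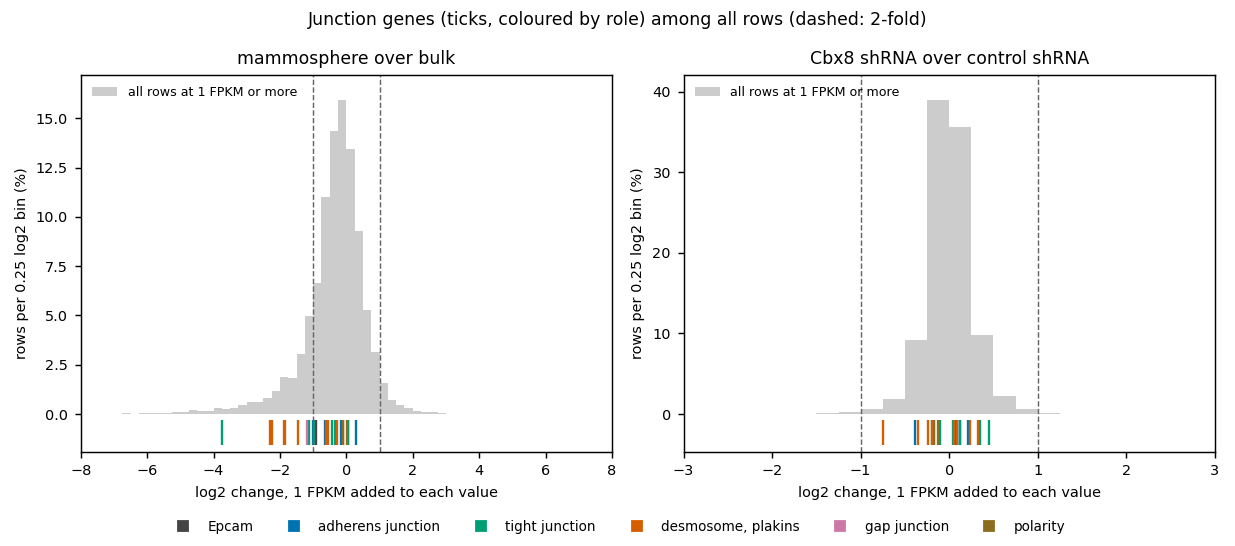
Distribution of the log2 difference over all rows at 1 FPKM or more (grey, % of rows per 0.25 log2 bin) with a tick for each junction gene at that minimum, left mammosphere over bulk and right Cbx8 shRNA over control shRNA (the left axis runs to 8 and the right to 3 on either side). The left ticks reach from −3.73 to 0.30 and the right ticks lie between −0.75 and 0.45, inside the dashed 2-fold lines.

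Among the wider junction genes in the knockdown table, 39 reached 1 FPKM, 31 were above 0 and 8 below, with a median of 0.15 and none past 2-fold in either direction. Over all 10685 rows at that minimum, 51.2% were below 0 (median −0.006), 0.449% were 2-fold lower and 0.299% 2-fold higher. Cdh2 was 0.51 higher on the log2 scale (14.7 and 21.4 FPKM). The channel protein Panx1, pannexin 1, was at 6.85 and 9.59 FPKM (0.43). Prkci was at 50.1 and 69.2 FPKM (0.46), and Cgnl1, paracingulin, at 35.96 and 46.6 (0.37). In the epithelial list Krt14, a basal keratin, was at 1.09 and 10.5 FPKM (2.46, q = 0.0325 in the authors' deposited table) and was the 1 gene of 8 past 2-fold. Snai1 was at 14.0 and 16.4 FPKM and Twist1 at 37.2 and 34.2. Of the fibroblast markers 6 had a row, with sums of 67.0 and 78.1 FPKM in control and knockdown cells, mostly from Fbln2 (56.7 and 73.4). Of the 4 at 1 FPKM or more, 1 was above 0 and 3 were below, with a median of −0.76 and a range from −0.99 to 0.37. The higher sum thus reflects Fbln2 and not the list as a whole. The endothelial sums were 28.6 and 31.1 FPKM, and the leukocyte sums 0.759 and 0.588.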

How the data were processed

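RNA-seq was made from 4 cultures of MMTV-Myc cells, 1 library a group, so no test across replicates was possible. TopHat 1.4.0, Cufflinks 1.3.0, Cuffdiff (listed as version 0.0.7) and FastQC 0.10.0 are named with build mm9, per the submitters' processing notes. The sources used here do not give their settings or how reads mapping to several places were counted. The authors deposited 1 Cuffdiff table for each pair of libraries, with FPKM per gene. The authors' p-value and q-value stand in the same deposited tables and are quoted only for rows they tested. Depth is unknown: counts are not in the tables used, and whole reads could not be read from the lowest FPKM (at most 15 of 1242 rows under 0.1 FPKM in both libraries shared a ratio within a log2 bin of 0.01).

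Each gene was matched by its symbol in the gene column, taking the row of highest mean FPKM; each member had 1 row where it had any. Log2 differences were computed within a table with 1 FPKM added, and rows needed 1 FPKM in either library; rows that failed or held too many fragments were left out. A 2-fold limit was used for counts, and the counting was tested on simulated data. That simulation used rows at 10 FPKM or more and changes well beyond 2-fold. It does not speak for lower rows or for differences near the limit. Members and lists were chosen with earlier results of these data known. Values were to be given for members at 10 FPKM or more in any library and for at most 4 genes of each other list with the largest differences; Epcam, Cdh1, Cdh3, Cgn, Dsc2, Dsg2, Ocln, Pvrl1, Pkp3, Gjb2, Zeb1 and Zeb2, and Snai1 and Twist1 in the knockdown table, were named outside that rule after their values were seen. Some genes of the other lists are counted but not reported here by name. Promoter windows came from RefSeq (GRCm38.p6), matched for 23 of 36 members by symbol or synonym. Python 3.11.15, pandas 2.3.3 and NumPy 2.4.6 were used.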

Additional observations from a re-analysis of the deposited data

How the results depend on the processing

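No member's 2-fold difference changed sign under any of the alternatives run, but none of them shifts values far enough to reverse such a difference. No member was 2-fold higher in mammospheres under any of the alternatives. In the mammosphere comparison 9 members were 2-fold lower; with 5 FPKM added to each value this was 5 (8.27% of all rows), and among rows the authors tested it was 3 of 10 (16.2%). The other alternatives at 2-fold gave between 6 and 11 (8.93% to 20.7% of all rows), and a limit of 1.5-fold gave 13 (30.7%). The median of −0.59 became −0.32 with 5 FPKM added, −0.39 without an FPKM minimum, −0.40 with centring and −0.32 with equal upper quartiles. The median of all rows, −0.24 at first, moved as well, to −0.16, −0.0155, −0.05 and 0.03 in the same order. With centring or equal upper quartiles 23 of 26 members kept their sign, and Pvrl2, Pkp4 and Pard3 turned positive. In the knockdown comparison a limit of 1.5-fold gave 1 lower member, Jup (2.18% of all rows), and 0 higher. The median of 0.05 became −0.089 without an FPKM minimum, when the 6 members under 1 FPKM entered. No other alternative gave a called member there. Summing rows of a symbol altered no member's value. No paired analysis was possible because each group has 1 library. Without counts or replicates, a difference of a gene near 1 FPKM cannot be told from counting error here.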

Other observations

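The Kunitz-type inhibitors of the epithelial protease matriptase (St14), which helps to maintain tight junctions, differed in opposite directions between bulk and mammosphere cells. Spint2 stood at 11.8 FPKM in bulk and at 0.434 in mammosphere cells (log2 difference −3.16 with 1 FPKM added), whereas Spint1 was at 4.63 and 17.7 (1.73). St14 itself was at 1.07 and 0.263 FPKM. Spint2 and St14 passed the 1 FPKM minimum through the bulk library alone and could only be lower. In the hairpin libraries Spint1 was at 4.54 FPKM in control and 2.37 in knockdown cells (−0.72), and Spint2 at 9.12 and 8.10 (−0.15). Spint1 and St14 were singled out after their values were seen, and no replicate exists for any of these differences.

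Paracingulin (Cgnl1) and cingulin (Cgn), related tight junction plaque proteins, also differed in opposite directions between bulk and mammosphere cells. Cgnl1 was at 10.1 and 14.7 FPKM (0.50) and Cgn at 1.01 and 0.0166 (−0.99). In the hairpin libraries Cgn was at 4.83 and 5.01 FPKM. Cgn passed the 1 FPKM minimum through the bulk library alone and could only be lower, and Cgnl1 stayed within 2-fold. Cgnl1 was singled out in this comparison after its values were seen.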
